A study of Mus musculus with 6 samples.

Results

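The LDL receptor-related proteins are single-pass membrane receptors with large extracellular domains, and the genes described here are 8 for such proteins or their chaperone (Lrp1, Lrp2, Lrp4, Lrp5, Lrp6, Lrp8, Vldlr and Lrpap1) together with the partners of megalin, Cubn and Amn. They were chosen by name. For each, the brightest on average of the probe sets that the platform annotation gives to that gene alone was used, and 10 of 10 were found among 19937 genes. The choice was made with the comparison of the treatments in view, in which Lrp2 was one of the genes with the lowest differences, so the differences of these 10 genes are given as a description and no p-value is printed for them.

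RNA of mouse embryonic stem cells was profiled on 6 Affymetrix arrays of 1 colour, 3 per treatment. The culture medium held serum and LIF, which sustains self-renewal, and the cells were kept on feeder cells from DR4 mice. All 6 arrays came from the same V6.5 line with a Ctnnb1-Biotin-3xFLAG knock-in, which tags the endogenous β-catenin, and with the biotin ligase BirA (Ctnnb1-BioFLneo;BirA ESC). Cells were given either CHIR99021 at 3 µM, which inhibits the kinase GSK3 and so stabilises β-catenin, or XAV939, which inhibits tankyrase and so lowers β-catenin, for 24 h. The XAV939 dose was 3 µM in the sample labels and 1 µM in the treatment protocol. Both groups thus carried the tag and BirA, neither was untreated, and a difference between them could not be assigned to one compound. Nothing in the labels said that the replicates were separate cultures, so the errors measure the spread between these arrays, which may be technical.

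In the canonical Wnt pathway, Wnt ligands join a Frizzled receptor to Lrp5 or Lrp6, whose phosphorylated tails recruit Axin and slow the destruction of β-catenin. Of the other receptors described here, Lrp1 and Lrp2 work mainly in endocytosis, while Lrp4, Lrp8 and Vldlr also pass on signals. Lrp2, or megalin, takes up vitamin carriers, lipoproteins and morphogens at the apical face of absorptive epithelia such as the visceral endoderm and the kidney tubule, often together with cubilin (Cubn) and its membrane anchor amnionless (Amn). Lrp8 and Vldlr bind reelin and apolipoprotein E, and Lrp4 is the receptor for agrin at the neuromuscular junction.

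The promoter windows of the 2 genes with the clearest differences, Lrp2 and Lrp8, are shown beside that of Cubn, the 1 gene with a match among the 7 whose promoters could be searched for a motif of TCF/LEF factors, the DNA-binding partners of β-catenin. Sequences are from RefSeq (GRCm38.p6), run 5′ to 3′ on the gene's strand over the 250 bases before the annotated start, and carry motif matches in capitals. Lrp2 lies on the minus strand at chr2:69586030-69586279, Cubn on the minus strand at chr2:13491877-13492126 and the first of 3 annotated starts of Lrp8 on the plus strand at chr4:107802635-107802884.
Lrp2: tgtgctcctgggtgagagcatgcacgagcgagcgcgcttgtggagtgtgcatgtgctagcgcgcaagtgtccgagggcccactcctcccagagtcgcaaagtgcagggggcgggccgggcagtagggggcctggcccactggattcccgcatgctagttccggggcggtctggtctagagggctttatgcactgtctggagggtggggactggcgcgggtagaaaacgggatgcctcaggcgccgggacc
Lrp8: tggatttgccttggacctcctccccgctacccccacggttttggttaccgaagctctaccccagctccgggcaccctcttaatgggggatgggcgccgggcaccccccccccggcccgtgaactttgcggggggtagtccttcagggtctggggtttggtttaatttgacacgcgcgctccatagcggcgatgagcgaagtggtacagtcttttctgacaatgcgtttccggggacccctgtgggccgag
Cubn: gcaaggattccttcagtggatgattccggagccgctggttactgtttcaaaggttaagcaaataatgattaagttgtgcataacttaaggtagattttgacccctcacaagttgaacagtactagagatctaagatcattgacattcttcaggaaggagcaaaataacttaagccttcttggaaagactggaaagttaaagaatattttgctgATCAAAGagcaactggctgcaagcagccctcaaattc

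The motifs searched were CTTTGAT and CTTTGTT, on both strands, and a single stretch cannot match both. At least 1 of them stood in 8.07% of 32817 promoter windows of the same length. Among the 10 windows of the 7 genes held by the promoter table, 1 had a match, the CTTTGAT on the reverse strand that begins 37 bases before the start of Cubn. No match was in the windows of Lrp2, Lrp8, Lrp1, Amn, Lrpap1 or Vldlr, which says only that these letters are not in these windows. Lrp4, Lrp5 and Lrp6 were not in the table. The windows also differed in base composition, with 18 CpG dinucleotides and 66.4% G and C in that of Lrp2, 18 and 62.4% in that of the first Lrp8 start, and 2 and 39.6% in that of Cubn, where the median over all windows was 6 CpG and 52.4%.

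The 6 arrays had medians of 5.67 to 5.71 on the log2 scale. The treatments separated along the first principal component (60.5% of the variance), and the second, with 17.5%, set XAV939 replicate 1 apart from the other arrays of its group. Values without that array are given where they matter. The Wnt target genes listed as a check of the treatment labels were chosen with earlier results of these data known. Of these, 7 of 9 were called higher with CHIR99021, against 5.31% of all genes. For all 9 every CHIR99021 array lay above every XAV939 array, as for 14.1% of all genes. Axin2, a feedback inhibitor of the pathway, was higher by 1.91 ± 0.09 (SE, adjusted p = 5.43e-07 in limma's moderated test). Lef1, a TCF/LEF factor, rose by 0.69 ± 0.06, the homeobox gene Cdx2 by 1.63 ± 0.10 and Tnfrsf19, a TNF receptor family member, by 0.79 ± 0.06. The labelled cell type was checked against 12 embryonic stem cell markers, all of which lay at or above the 83.6th percentile of probe set levels.

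Lrp2 was 3.04-fold lower with CHIR99021 than with XAV939, and Lrp8 was 1.33-fold higher. The other 8 genes did not pass an adjusted p of 0.05 in the fit over all genes, and the 95% intervals of their differences held no change above 1.25-fold in either direction. Of the 10 genes, 1 was thus called higher and 1 lower. Over all 19937 genes 9.65% were called, 5.31% higher and 4.34% lower. Nothing is read from these counts, since the genes were chosen with this comparison known. The median absolute log2 difference was 0.055 for the 10 genes and 0.062 for all genes.

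**Figure D1:**
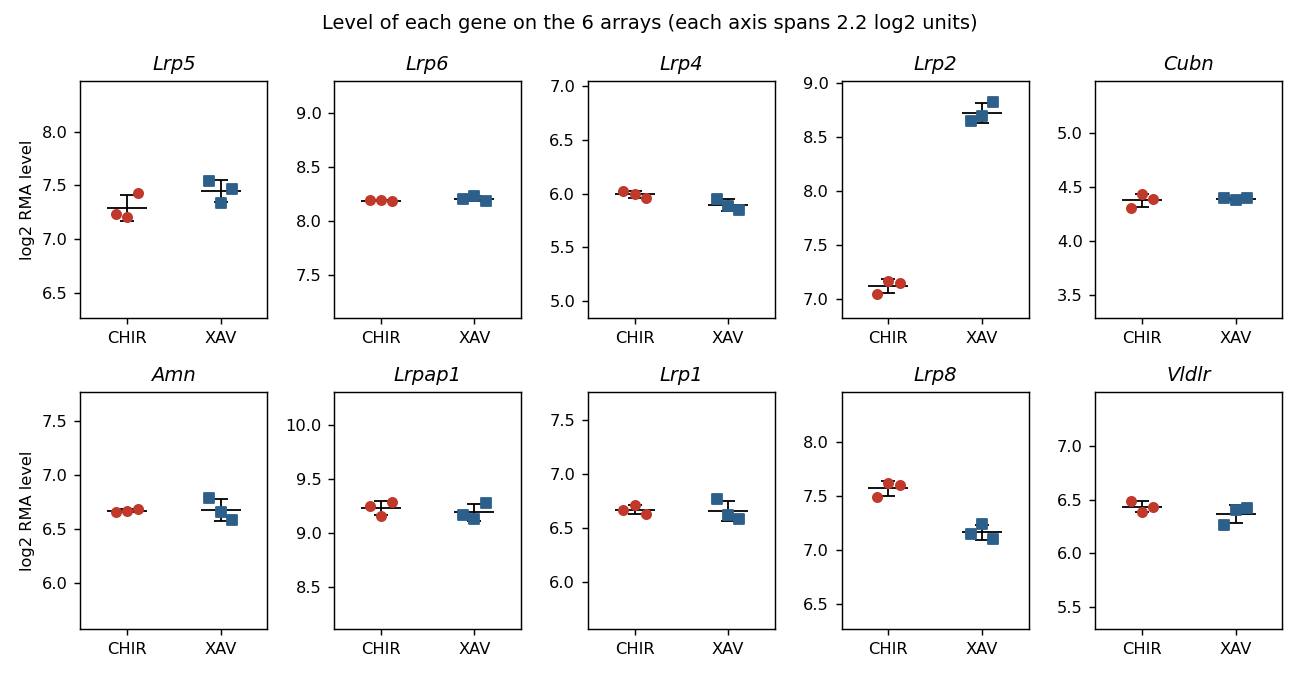
Log2 RMA level of each gene on each array, with CHIR99021 as circles and XAV939 as squares. Points in a column are replicates 1 to 3 from left to right, bars are the mean ± SD of 3 arrays, and every vertical axis spans the same range. Lrp2 sits between 7.04 and 7.17 with CHIR99021 and between 8.65 and 8.83 with XAV939, and Lrp8 is higher on all CHIR99021 arrays.

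**Figure D2:**
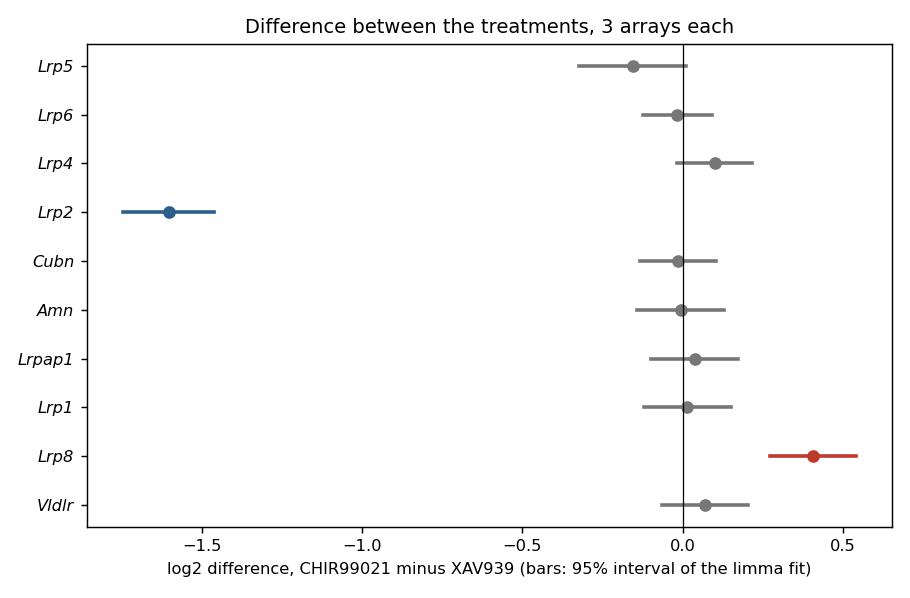
Log2 difference, CHIR99021 minus XAV939, of the 10 genes with the 95% interval of the limma fit on 3 arrays per treatment. Blue marks Lrp2, called lower, red marks Lrp8, called higher, and the intervals of the 8 grey genes hold 0.

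Among the Wnt co-receptors, Lrp6 (probe set 10548701) was the more even of the pair. Its log2 level was 8.19, 8.20 and 8.18 on CHIR99021 replicates 1 to 3 and 8.20, 8.23 and 8.19 on XAV939 replicates 1 to 3. The arrays overlapped and lay within a few hundredths of each other. The difference, here and throughout CHIR99021 minus XAV939, was -0.016 with a 95% interval of -0.12 to 0.092, which leaves room for a fall of 1.09-fold or a rise of 1.07-fold. The width of that interval comes mainly from the spread of all genes, since the SD of Lrp6 was 0.0075 with CHIR99021 and 0.022 with XAV939.

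Lrp5 (probe set 10464504), the other Wnt co-receptor, varied more between arrays. Its log2 level was 7.24, 7.21 and 7.43 with CHIR99021 and 7.54, 7.34 and 7.47 with XAV939. CHIR99021 replicate 3 stood 0.21 above the mean of the other arrays of its group and within the range of the XAV939 arrays, so the groups overlapped. The difference was -0.16 ± 0.07 (SE, n = 3 per treatment), with an interval of -0.32 to 0.011, and it was -0.22 without CHIR99021 replicate 3 and -0.11 without XAV939 replicate 1. Lrp5 was not called in any of these fits.

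Lrp4 (probe set 10473880), which binds agrin and also the Wnt antagonist sclerostin, was at 6.03, 5.99 and 5.96 with CHIR99021 and at 5.95, 5.89 and 5.84 with XAV939. Every CHIR99021 array was above every XAV939 array, though by a small margin. The treatments did not overlap for 3 of the 10 genes, Lrp2, Lrp4 and Lrp8, and for 25.1% of all genes, 14.1% with CHIR99021 above. The difference of 0.10 ± 0.05 (SE) was not called, and its interval was -0.018 to 0.22.

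Lrp2 (probe set 10483439), the endocytic receptor megalin, was at 7.04, 7.17 and 7.15 with CHIR99021 and at 8.65, 8.69 and 8.83 with XAV939. The groups were far apart, with means of 7.12 ± 0.07 and 8.72 ± 0.09 (SD, n = 3). Lrp2 was the 1 gene of the 10 with every CHIR99021 array below, as 11% of all genes were. The difference was -1.60 ± 0.06 (SE), with an interval of -1.74 to -1.46, which made it the gene with the 6th lowest difference of 19937. Leaving out 1 array at a time gave values between -1.64 and -1.55. In these bulk samples fewer cells that express a gene and less RNA per cell cannot be told apart.

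The partners of megalin showed no called difference. Amn (probe set 10398635), the membrane anchor of cubilin, was at 6.65, 6.67 and 6.68 with CHIR99021 and at 6.78, 6.66 and 6.58 with XAV939. The XAV939 arrays surrounded the CHIR99021 arrays on both sides, and the difference was -0.0053 with an interval of -0.14 to 0.13. Its sign turned on single arrays, since the difference was 0.050 when XAV939 replicate 1 was left out and -0.053 when XAV939 replicate 3 was.

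Cubn (probe set 10480155), which binds intrinsic factor with vitamin B12 and filtered proteins, was at 4.31, 4.43 and 4.39 with CHIR99021 and at 4.40, 4.38 and 4.40 with XAV939. Its mean level was at the 21.2th percentile of the probe sets of the arrays, among the lowest 25%. No detection call was made here, and a change of a transcript near background tends to be compressed by RMA. The difference was -0.016, with an interval of -0.13 to 0.10.

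Lrpap1 (probe set 10529445) encodes RAP, a chaperone that keeps ligands off the receptors of this family while they fold. It was at 9.25, 9.16 and 9.29 with CHIR99021 and at 9.17, 9.13 and 9.28 with XAV939. The groups overlapped almost fully, with a difference of 0.039 and an interval of -0.097 to 0.17. Lrp1 (probe set 10373223), an endocytic receptor for proteases, their inhibitors and apolipoprotein E, was at 6.67, 6.72 and 6.63 with CHIR99021 and at 6.77, 6.62 and 6.59 with XAV939. The highest array was XAV939 replicate 1, and the difference of 0.015 (interval -0.12 to 0.15) was 0.069 without it and -0.020 without XAV939 replicate 3.

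Of the reelin receptors, Lrp8 (probe set 10506714), also called ApoER2, was at 7.49, 7.62 and 7.61 with CHIR99021 and at 7.15, 7.24 and 7.11 with XAV939. All CHIR99021 arrays were above all XAV939 arrays. The difference was 0.41 ± 0.06 (SE), with an interval of 0.27 to 0.54, and between 0.38 and 0.45 with 1 array left out. Vldlr (probe set 10462281), the other reelin receptor, was at 6.49, 6.38 and 6.43 with CHIR99021 and at 6.27, 6.41 and 6.42 with XAV939. Its groups overlapped, with a difference of 0.071 (interval -0.063 to 0.21) that was 0.022 without XAV939 replicate 1, the lowest array.

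**Figure D3:**
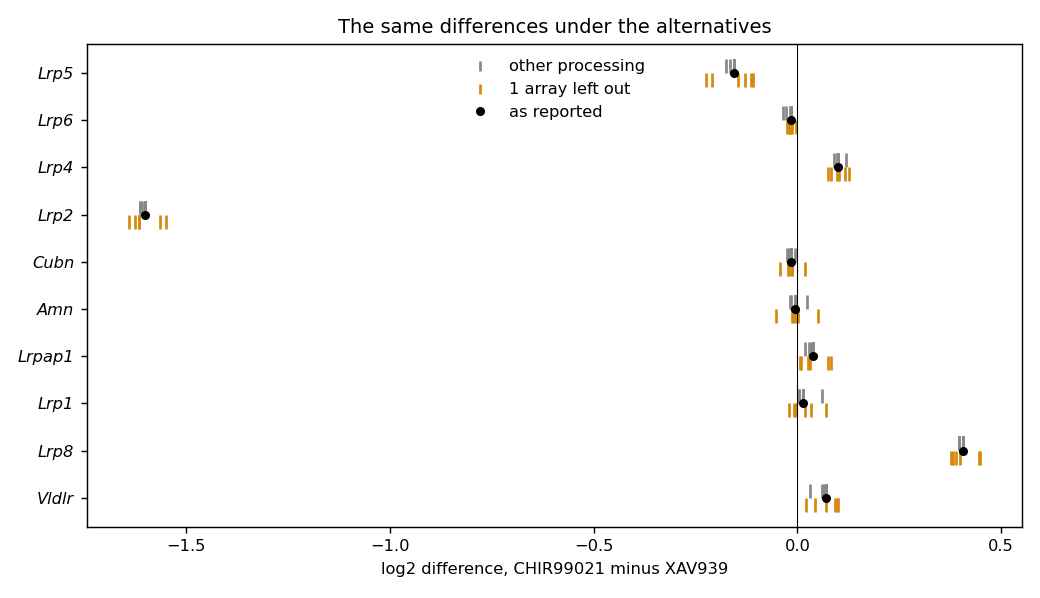
Log2 difference of each gene as reported (black points), under other processing (grey ticks) and with 1 array left out (orange ticks). Lrp2 stays between -1.64 and -1.55 and Lrp8 between 0.38 and 0.45, while Cubn, Amn and Lrp1 have values on both sides of 0.

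The genes next to Lrp2 and Lrp8 on their chromosomes were looked up in the RefSeq gene order, a choice made after the values of the receptors were seen. The 2 nearest measured genes on each side of Lrp2 (Abcb11, Dhrs9, Bbs5 and Klhl41) differed by 4.6e-04 to 0.14, and 0 of the 4 were called by limma, with 1 at an unadjusted p under 0.05. The 4 nearest to Lrp8 (Glis1, Dmrtb1, Lrp8os2 and Czib) differed by -0.045 to 0.14, and 0 of the 4 were called by limma, again with 1 at an unadjusted p under 0.05. Over all genes 9.65% were called, so 0 of 4 is a usual count, and nothing is read from the counts of neighbours.

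The 5 genes whose values on the 6 arrays lay nearest to those of Lrp2, each gene centred on its own mean, were Car4, Dnmt3a, Sema3e, Lefty1 and Tmem54. Their root mean square log2 distances from Lrp2 were 0.074, 0.087, 0.089, 0.10 and 0.15. Car4, a carbonic anhydrase of the cell surface, went from 8.03 with XAV939 to 6.37 with CHIR99021. Dnmt3a, a de novo DNA methyltransferase, went from 9.60 to 8.10, and Lefty1, an inhibitor of Nodal signalling, from 8.90 to 7.40. With 2 treatments this likeness is mainly that of genes with a difference of similar size.

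Other genes of the receptor family showed no called difference. Of 10 measured (Lrp1b, Lrp3, Lrp10, Lrp11, Lrp12, Ldlrad1 to Ldlrad4 and Sorl1), 0 passed in limma's test over all genes, with 1 at an unadjusted p under 0.05, and the median difference was 0.046, against 0.0066 for all genes. Sorl1, a sorting receptor of neurons and other cells, had the smallest p, with 7.31 ± 0.03 (SD, n = 3) with CHIR99021 and 7.12 ± 0.07 with XAV939 and a difference of 0.19 ± 0.06 (SE, adjusted p = 0.0642). Ldlrad4, a regulator of TGF-β signalling, differed by -0.16 ± 0.08 (adjusted p = 0.271).

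Partners of Lrp5 and Lrp6 at the membrane moved in both directions, with 3 of 26 measured genes called higher, 2 called lower and the remaining 21 uncalled, and a median difference of 0.030. For this and the lists that follow, the shares over all genes were 5.31% higher and 4.34% lower, and nothing is read from the counts. Besides Axin2, Rspo3, a secreted amplifier of Wnt signalling, rose by 0.40 ± 0.06 (adjusted p = 0.00174), and Dkk1, the antagonist that binds Lrp5 and Lrp6, rose by 0.25 ± 0.07 (adjusted p = 0.0430). Lgr4, a receptor for R-spondins, fell from 9.37 ± 0.10 with XAV939 to 8.70 ± 0.07 with CHIR99021 (SD, n = 3), a difference of -0.67 ± 0.06 (SE, adjusted p = 9.19e-05). Caprin2, which promotes phosphorylation of the Lrp6 tail, fell by 0.42 (adjusted p = 0.00109). Dkk1 was no longer called when either of CHIR99021 replicates 1 and 2 or either of XAV939 replicates 2 and 3 was left out (adjusted p = 0.120 to 0.170). Mesd, the chaperone of Lrp5 and Lrp6, was not analysed here.

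Among endocytic adaptors and genes of receptor turnover, 1 of 16 rose, 2 fell and 13 did not pass, with a median difference of 0.012. Dab1 and Dab2 both encode adaptors that bind the NPxY motif of receptor tails. Dab1, which carries the reelin signal from Lrp8 and Vldlr, had a level of 6.83 ± 0.04 with XAV939 and of 6.36 ± 0.03 with CHIR99021 (SD, n = 3), a fall of 1.38-fold with a difference of -0.47 ± 0.05 (SE, adjusted p = 2.08e-04). Dab2, the adaptor of megalin in endoderm and kidney, had 5.37 ± 0.16 and 5.02 ± 0.11, a difference of -0.35 ± 0.09 (SE, adjusted p = 0.0282), and its other probe set gave -0.087. Dab2 was no longer called when replicate 1 or replicate 2 of either treatment was left out (adjusted p = 0.0673 to 0.126). Cltc, the clathrin heavy chain, rose by 0.20 ± 0.05 (adjusted p = 0.0370), which was lost without any 1 of the 6 arrays (0.0637 to 0.142) and with arrays centred on their median.

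In the reelin pathway, 1 of 8 genes rose, 2 fell and 5 did not pass, with a median difference of -0.072. Beside Lrp8 upward and Dab1 downward, the kinases that phosphorylate Dab1 differed in direction, with Src higher by 0.46 ± 0.08 (adjusted p = 0.00455) and Fyn lower at -0.29 ± 0.07 (adjusted p = 0.0202). Fyn was no longer called when either of CHIR99021 replicates 1 and 2 or either of XAV939 replicates 2 and 3 was left out (0.0686 to 0.0998), which left 1 gene lower. Of the agrin pathway of Lrp4, 0 of 4 genes passed in limma's test, with 0 at an unadjusted p under 0.05. Agrn, encoding agrin, differed by -0.10 ± 0.06 (adjusted p = 0.431) and its receptor kinase gene Musk by 0.038 ± 0.053 (adjusted p = 0.789).

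Of 21 genes for ligands and carried proteins of the endocytic receptors, 9 rose, 1 fell and 11 did not pass. Over all genes 5.31% rose and 4.34% fell. The median difference was 0.12, against 0.0066 for all genes, in a list chosen with earlier results of these data known. Bmp4, a growth factor that megalin can take up, rose 2.17-fold (1.12 ± 0.05, adjusted p = 9.68e-07). The urokinase receptor gene Plaur rose by 0.67 ± 0.05 (adjusted p = 2.68e-05) and urokinase itself, Plau, by 0.56 ± 0.07 (adjusted p = 3.11e-04). Both belong to the complexes that Lrp1 clears from the cell surface. Mdk, encoding the heparin-binding growth factor midkine, was the gene that fell (-0.36 ± 0.05, adjusted p = 0.00126). Without CHIR99021 replicate 3, XAV939 replicate 2 or XAV939 replicate 3 the count of genes that rose was 5.

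**Figure D4:**
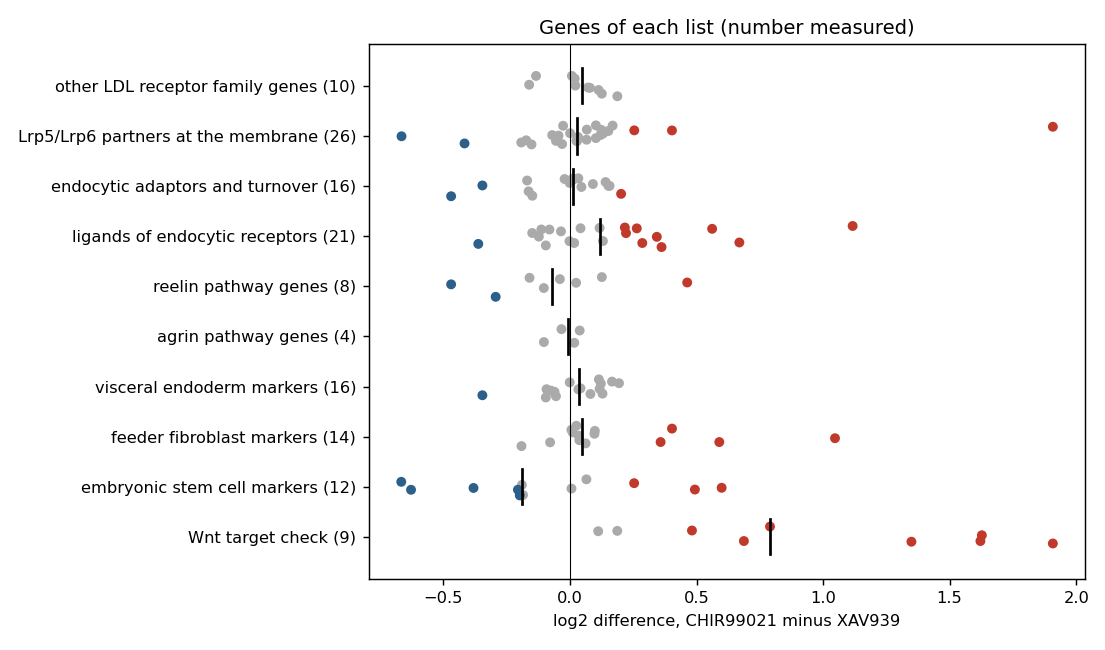
Log2 difference, CHIR99021 minus XAV939, of each measured gene of the 10 lists, with red for genes called higher, blue for genes called lower and grey for the rest. Black bars are list medians, which lie between -0.19 (embryonic stem cell markers) and 0.79 (Wnt target genes), and some genes stand in more than 1 list. The 10 other LDL receptor family genes are all grey, and Axin2 is the farthest point of the Lrp5 and Lrp6 partners.

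Megalin, cubilin and amnionless are known from visceral endoderm, so 16 genes listed as its markers, not all particular to it, were examined beside Lrp2. Of these, 0 rose, 1 fell (Dab2) and 15 did not pass, with 3 at an unadjusted p under 0.05 in limma's test. The sum of their antilog levels was 1386 to 1415 on the CHIR99021 arrays and 1399 to 1427 on the XAV939 arrays, so that the groups overlapped. That sum is weighted to the brightest markers, the basement membrane genes Lamb1, Col4a1 and Col4a2, so it says little of the dimmer ones. RMA values have no zero, and 8 of the markers (Sox7, Sox17, Afp, Ttr, Apoa1, Rbp4, Dab2 and Pdgfra) lay below the median level, with 0 among the lowest 25%. Without XAV939 replicate 1 the basement membrane collagen gene Col4a1 was called higher, with a difference of 0.23 (adjusted p = 0.0274). With array weights Col4a1 (0.22, adjusted p = 0.0170) and Col4a2 (0.19, adjusted p = 0.0311) were called higher. No marker was called lower in the fits in which Dab2 lost its call. The part of this tissue in the difference of Lrp2 was not tested.

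Markers of the feeder fibroblasts did not all move together. Of 14 measured, 4 rose, 0 fell and 10 did not pass, with a median difference of 0.049. Every CHIR99021 array lay above every XAV939 array for 5 of the 14 and below for 1, against 14.1% and 11% of all genes. The sum of their antilog levels was 1197 to 1201 with CHIR99021 and 903 to 998 with XAV939. That sum is weighted to the brightest marker, Col1a1, at 8.30 with CHIR99021 and 7.25 with XAV939. Col1a1, a type I collagen gene, rose by 1.05 ± 0.05 (adjusted p = 1.56e-06), Pdgfrb, a receptor of mesenchymal cells, by 0.59 ± 0.05, Col1a2 by 0.40 ± 0.06 and Twist2, a mesenchymal transcription factor, by 0.36 ± 0.06. Postn, Lum and Dcn were among the lowest 25% of probe set levels. The part of feeder RNA in the differences of Lrp2 and Lrp8 was not tested.

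Markers of the stem cells themselves were mixed, with 3 of 12 called higher, 5 called lower and 4 uncalled. The sum of their antilog levels was 21981 to 22520 with CHIR99021 and 24397 to 25017 with XAV939. That sum is weighted to the brightest markers, Dppa5a, Tdgf1 and Utf1, of which Tdgf1 and Utf1 were called lower. It says little of the other markers. Nanog rose by 0.49 ± 0.05 and Esrrb by 0.60 ± 0.06, both transcription factors of the naive state, and Zfp42 by 0.25 ± 0.06. Utf1 (-0.67), Tdgf1, a Nodal co-receptor (-0.63), Fgf4 (-0.38), Lin28a (-0.21) and Sall4 (-0.20) were lower. The calls of Zfp42 (adjusted p = 0.0690 to 0.0782 without CHIR99021 replicate 1 or 3 or XAV939 replicate 2), Lin28a (0.0564 to 0.0842 without any 1 array other than XAV939 replicate 1) and Sall4 (0.0645 to 0.169 without any 1 array) were lost. The count of lower markers was then 3 in each fit that left out CHIR99021 replicate 1, CHIR99021 replicate 2, XAV939 replicate 2 or XAV939 replicate 3.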

How the data were processed

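The samples were 6 arrays of total RNA, 3 with CHIR99021 and 3 with XAV939, placed in groups by their titles. Per the labels' protocols, RNA was extracted with TRIZOL and 300 ng was labelled with Affymetrix whole-transcript kits. The deposited values are log2 expression levels of probe sets, which the authors obtained with RMA, per the submitters' processing notes. Its version and the build are not stated in the sources at hand. RMA equalises arrays and compresses differences near background. For arrays, their number limits the precision.

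Of 34760 probe sets, 21640 named 1 gene in the platform annotation, which gave 19937 genes by the highest mean. Each of the 10 genes described had 1 probe set. CHIR99021 minus XAV939 was fitted over all genes with limma 3.58.1 in R 4.3.3, with Benjamini-Hochberg adjustment and a threshold of 0.05, without filtering, and tested on simulated data. The 10 genes and the 10 lists (130 genes measured) were chosen with earlier results of these data known. Named list genes were up to 4 with the smallest p among those called, all called genes in a direction where 5 or fewer passed, or, with none called, the 2 of smallest p. Axin2 and Dab2 were always named, other always-named genes are not reported here, and genes named without values illustrate a list's content.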

Additional observations from a re-analysis of the deposited data

How the results depend on the processing

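The calls of Lrp2 and Lrp8 and the absence of a call for the other 8 genes held in all 16 alternatives in which each gene was tested, which include leaving out each array (Lrp4 entered 15 and Cubn 14, since filters on level removed them). Of 157 values of the 10 genes under these alternatives, 156 lay within 1 residual SD of the reported value. The exception was Lrp6 at -0.034 after a second quantile normalisation. This count was largely fixed in advance. Filters on level, the stricter threshold, the replicate block and the settings for probe sets or variance leave these differences unchanged. Leaving out 1 of 3 arrays cannot move a difference by 1 residual SD. Only median centring, the second quantile normalisation and array weights could have done so. The sign was kept throughout by 7 genes and not by Cubn, Amn and Lrp1. The number of called genes was 1924 as reported, 1044 with all probe sets tested, 1118 at a threshold of 0.01 and 1254 to 2247 with 1 array left out, where 1254 was without CHIR99021 replicate 2. Array weights gave 2857. The number of genes called lower, 866 as reported, was 528 without CHIR99021 replicate 2, 573 without CHIR99021 replicate 1, 460 with all probe sets tested, 497 at a threshold of 0.01 and 1409 with array weights. The labels number replicates 1 to 3 in both groups, but deviations from the group means did not pair them, with correlations of -0.096, 0.060 and -0.14 between same-numbered arrays. With the replicate block the count was 1578, and Lrp2 and Lrp8 were still called. Among the list genes, 38 were called, 27 to 37 with 1 array left out, 45 with array weights and 31 with the block, which ended the calls of 7 (Cltc, Dab2, Lin28a, Sall4, Clu, Psap and Thbs1, the last 3 of them ligand genes) and added 0. The absence of detection calls limits what can be said of Cubn.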
